A study of Rattus norvegicus with 8 samples.

Results

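The control rats of this study gave 3 of its 8 whole-brain arrays, and their label alone placed them in the group. Per the labels, each control rat was intubated, breathed the volatile anaesthetic isoflurane for 3 min and was perfused at once with cold saline, and total RNA of the whole brain was measured. No source used here gives the isoflurane concentration of the controls or the strain, age and sex of the rats. The other 5 arrays, 2 from rats given 2% isoflurane for 1 hr and 3 from rats given it for 2 hr, served only to set the floor for dim signals. No rat without isoflurane was analysed here, so the baseline described is that of a briefly anaesthetised, intubated and perfused animal. No label gives an animal number, so the spread between the 3 arrays may be partly technical.

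A whole brain mixes neurons, which carry electrical and synaptic signals, with astrocytes, which take up transmitter and feed neurons, and oligodendrocytes, which wrap axons in myelin. Microglia, the cells of vessels, meninges and choroid plexus, and blood left in vessels add their own transcripts. Neural tissue spends much of its energy on restoring ion gradients through the sodium pump, and it makes that energy mainly from glucose by glycolysis and mitochondrial respiration. A transcript of a rare cell type is diluted in such a mixture, and in bulk RNA fewer cells of a type and less RNA per cell cannot be told apart.

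The authors deposited 1 intensity for each of 8799 probe sets, which are groups of short probes against 1 transcript. After 59 control probe sets were left out, 8740 remained, of which 7006 carried 1 gene symbol and gave 4736 genes. Values at or below 9.18, the 20th percentile of all values, were set to that floor (3.20 on the log2 scale), log2 was taken, and each gene was represented by its brightest probe set. Genes were ranked by the mean of the 3 control arrays, and a percentile of 100 is the highest rank. Where 3 values stand in a row they are log2 intensities of control replicates 1, 2 and 3, in that order. The brightness of a probe set also depends on its probes, so ranks order signals and do not give numbers of transcripts.

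The signal was concentrated in few genes. The top 10%, 474 genes, began at a log2 intensity of 8.87 and held 66.0% of the summed intensity, and the 30 brightest genes held 17.0%. Ndufc2, a respiratory chain subunit, lay just inside that limit and Syn1, a synaptic vesicle protein, just outside it, both at 8.87. The median gene lay at 5.82, and the middle 20%, 947 genes, ran from 5.23 to 6.44. For 409 genes, 8.64%, every probe set was at the floor on all 3 arrays. Another 3641 genes, 76.9%, were above the floor on all 3 arrays, and 686, 14.5%, on 1 or 2.

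**Figure D1:**
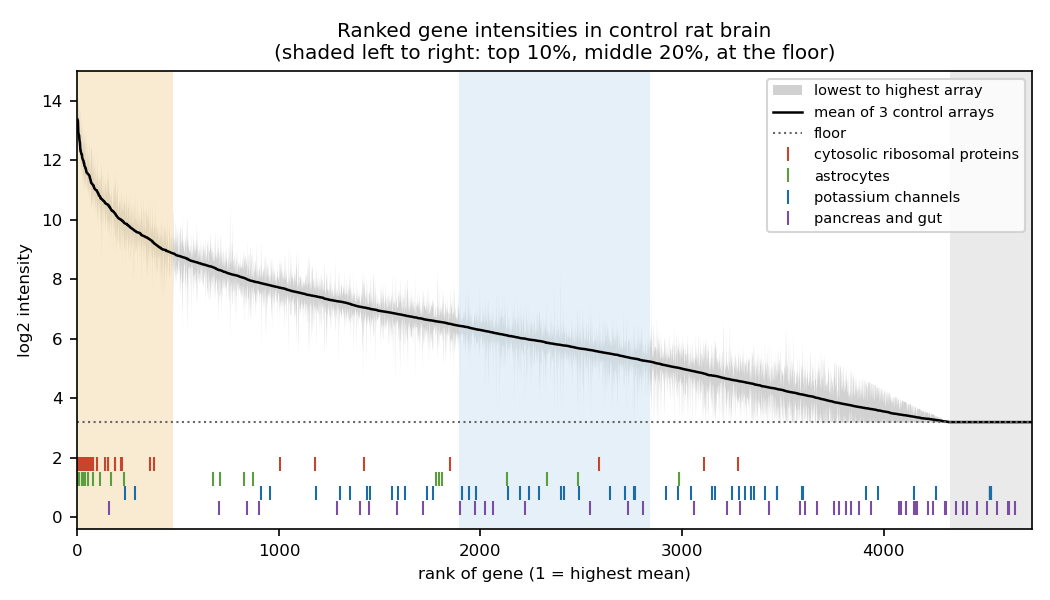
Mean log2 intensity (line) and lowest to highest array (grey band) of 4736 genes against their rank in 3 control arrays, with ticks for 4 gene lists under the floor line. Ribosomal protein genes crowd the top 10% (33 of 40), potassium channels spread over the middle and lower ranks, and pancreas and gut genes reach the floor (9 of 50).

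Control replicate 3 stood apart from the other 2 arrays. Over genes, replicates 1 and 2 had a Pearson correlation of 0.966, against 0.901 and 0.899 for replicate 3 with them, and the median absolute log2 difference was 0.319 for the first pair against 0.576 and 0.608. The highest intensity was 24393.4 on replicate 3, against 12444.6 and 10516.3. The 3′ to 5′ ratio of the actin control probe sets was 1.04, 1.68 and 2.89 on replicates 1, 2 and 3, that of GAPDH 1.13, 1.37 and 1.56, and that of hexokinase 3.15, 6.53 and 1.91. The share of probe sets above the floor was 77.8%, 78.9% and 81.2%. The replicates shared at most 70 identical values of 8740, and all 3 were counted as separate samples. List medians are therefore given with replicate 3 and, in brackets, without it.

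Genes of protein synthesis and respiration led the ranking, together with glial and myelin genes. Of the 30 brightest genes, 8 encoded cytosolic ribosomal proteins, 4 nuclear-encoded respiratory chain subunits, 2 mitochondrially encoded subunits and 4 proteins of the astrocyte list. The brightest was Apoe, the lipid carrier that astrocytes secrete, at 13.30, 12.98 and 13.84. Next came Rps29, a protein of the small ribosomal subunit, at 13.23, 12.65 and 14.17, and Cox4i1, a subunit of cytochrome c oxidase, at 13.23, 12.87 and 13.89. These top 3 means differed by less than the SD of each gene (0.434, 0.766 and 0.518), so their order is not resolved. Replicate 3 was the highest array for 20 of the 30, against 41.4% of genes above the floor on all 3 arrays, where replicate 1 was highest for 27.4% and replicate 2 for 31.2%.

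Others of the 30 brightest genes had varied roles. Cst3, the secreted protease inhibitor cystatin C, read 12.69, 12.21 and 13.82, and Gnas, the stimulatory G protein alpha subunit, 13.14, 12.99 and 12.46. Sparc, a matrix protein, read 12.66, 12.53 and 13.35, and Tmsb4x, which binds actin monomers, 12.39, 12.30 and 13.54. Ckb, the brain creatine kinase that buffers ATP, read 12.60, 12.81 and 12.39, and Mbp, the myelin basic protein, 12.60, 12.53 and 12.26. For Ckb and Mbp the 3 arrays spanned 0.419 and 0.341, within the median range of 0.823 over the 3641 genes above the floor on every array. Psap, the precursor of lysosomal saposins, read 11.88, 12.41 and 11.90.

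Ribosomal protein genes had the highest median of any list with over 3 members. Of 40 measured, 33 were in the top 10%, against 10% of all genes, none was at the floor, and the median percentile was 98.6 (97.4). After Rps29 came Rps16 at 12.45, 11.71 and 13.86, Rpl19 at 12.07, 11.52 and 13.40, and Rps3 at 11.78, 11.61 and 13.44. The lowest were Rpl30, at 5.50, 5.30 and 3.68, and Rpl5, at 4.64, 3.93 and 5.20. All of these except Rpl30 were highest on replicate 3, as were 39 of the 40, and the list mean was 10.10, 9.90 and 11.38.

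Vertebrate ribosomal protein messages usually begin with a run of pyrimidines that ties their translation to nutrient signals. A run of C followed by at least 5 pyrimidines within 20 bases of the annotated start, on the sense strand, was present in 29 of the 36 ribosomal protein promoters in the RefSeq table (assembly GRCr8), 80.6%, against 28.3% of all 3879 gene promoters and 34.1% of those in the top 10%. The 6 brightest genes with such a run are shown 5′ to 3′ from 20 bases before the start to 20 bases from it, with the run in capitals, to show where it lies relative to the annotated start.
Rps16, chr1:92770638-92770677, plus strand: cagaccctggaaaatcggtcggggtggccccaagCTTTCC
Rpl19, chr10:83519044-83519083, plus strand: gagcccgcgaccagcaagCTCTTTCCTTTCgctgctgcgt
Rps3, chr1:163195757-163195796, minus strand: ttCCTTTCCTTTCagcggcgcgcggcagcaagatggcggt
Rps15, chr7:10068096-10068135, minus strand: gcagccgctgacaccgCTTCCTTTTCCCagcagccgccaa
Rpl31, chr9:49143091-49143130, plus strand: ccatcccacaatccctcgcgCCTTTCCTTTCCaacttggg
Rpl27a, chr1:172974553-172974592, plus strand: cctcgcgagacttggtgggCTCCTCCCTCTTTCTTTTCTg
The run overlapped or adjoined the start base in Rpl19, Rps15, Rpl31 and Rpl27a, lay before it in Rps3 and after it in Rps16. A match of these letters is a description and not a measured start site.

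Translation factors ranked lower than ribosomal proteins. Of 17, 6 were in the top 10% and the median percentile was 84.3 (83.7). Eef2, the translocation factor of elongation, read 11.83, 11.68 and 10.99, and Eif4a2, a helicase that opens message leaders, 11.10, 10.96 and 10.63. Eef1a2, the elongation factor of neurons and muscle, read 11.28, 11.09 and 8.99, and its counterpart Eef1a1 10.14, 9.99 and 10.09. Eif2b5 and Eif2ak2, which act at initiation, were lowest, at 4.34, 5.15 and 5.47 and at 3.63, 5.20 and 3.20.

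Respiratory chain and ATP synthase genes followed closely. Of 52 nuclear-encoded members, 41 were in the top 10%, none was at the floor, and the median percentile was 95.2 (93.9). Cox6a1 read 12.81, 12.50 and 13.98, Cox8a 12.77, 12.64 and 13.39, and Uqcr11, of the cytochrome bc1 complex, 11.44, 11.54 and 13.06. The dimmest were Cox8b, a muscle form of a cytochrome c oxidase subunit, at 5.95, 5.30 and 4.995, and Ndufs1, the large iron-sulfur subunit of complex I, at 5.85, 4.73 and 4.45. The mitochondrial genome's own COX3, COX1 and COX2 all lay in the top 10%, at 12.66, 12.66 and 13.33, at 12.05, 12.35 and 13.47, and at 12.02, 11.40 and 11.997. All 3 messages are transcribed inside the organelle.

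Glycolysis genes and some genes of the pumps that spend ATP were also high. Of 17 genes of glycolysis, glucose and lactate transport and pyruvate oxidation, 12 were in the top 10%, with a median percentile of 94.8 (95.5). Pkm, the last enzyme of glycolysis, read 12.34, 12.26 and 12.03, Aldoc, the aldolase of astrocytes, 12.71, 12.18 and 11.35, Pgam1 11.65, 11.87 and 11.54, and Eno1 11.62, 11.32 and 11.54. The lowest were Hk2, the insulin-regulated hexokinase, at 7.08, 7.07 and 7.40, and Slc16a1, a lactate transporter, at 6.95, 7.27 and 6.33. Of the 7 sodium pump genes with a single-symbol probe set, 2 were in the top 10%, with a median percentile of 82.5 (89.0). Atp1b1, a beta subunit of the sodium pump, read 12.16, 12.46 and 12.17, and other probe sets of it had means of 10.4 and 5.68. Fxyd1, a regulator of the pump, read 9.14, 9.22 and 10.10. Atp1a4, a testis form, was at the floor and Fxyd2, a kidney regulator, read 3.20, 3.94 and 3.20. Of 8 vacuolar proton pump genes, which acidify synaptic vesicles and lysosomes, 5 were in the top 10%, led by Atp6v0c at 11.86, 12.31 and 11.57.

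Housekeeping of proteins and the cytoskeleton completed the upper ranks. All 6 genes of the 14-3-3 adaptor proteins, which bind phosphorylated partners, were in the top 10%, from Ywhah at 12.50, 12.33 and 12.32 to Ywhae at 9.42, 9.90 and 8.61. Of 11 tubulin and actin genes 6 were, led by Tuba1b at 12.31, 12.02 and 12.66 and Actb at 11.90, 11.82 and 11.53, while the smooth muscle and cardiac actins Actg2 and Actc1 were lowest, at 3.20, 4.47 and 4.13 and at 4.51, 3.20 and 3.20. Of 25 ubiquitin and proteasome genes, 14 were in the top 10% with a median percentile of 91.8 (90.2). They were led by Uchl1, a neuronal ubiquitin hydrolase, at 11.46, 11.90 and 10.99, and Psmb5, a catalytic proteasome subunit, at 11.15, 10.16 and 11.89. The immunoproteasome subunit Psmb9, at 5.66, 5.24 and 5.86, was last. Of 29 chaperones, 9 were in the top 10%. The constitutive Hsp90ab1 read 12.36, 12.14 and 11.50, whereas the heat-inducible form Hspa1a read 5.02, 5.80 and 3.42 (named after its value was seen).

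**Figure D2:**
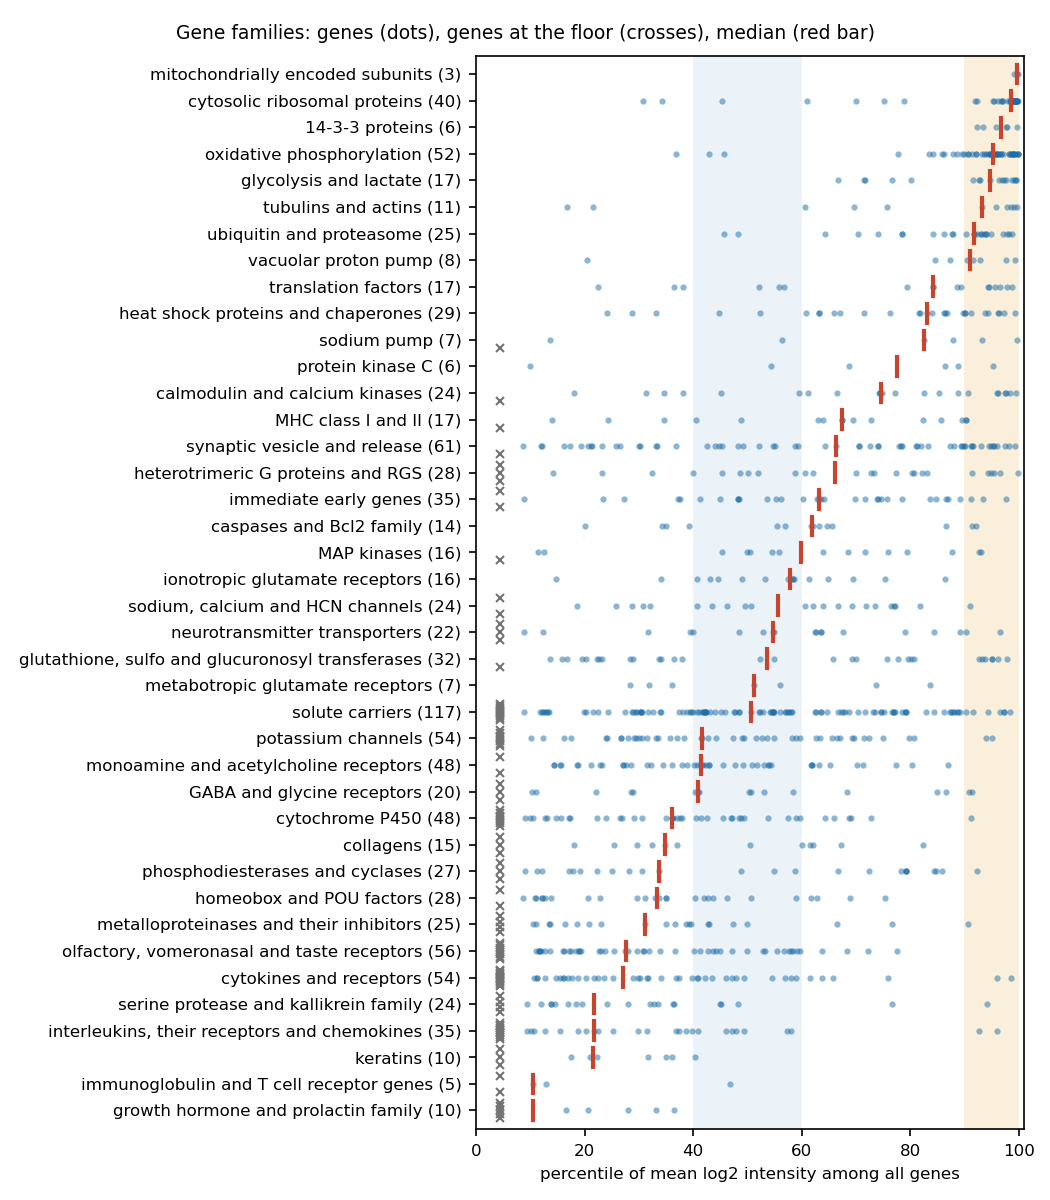
Percentile of each gene (dots), genes at the floor (crosses) and the median (red bar) for 40 families and functions, with the number of measured genes in brackets and the top 10% and middle 20% shaded. Medians run from 99.8 for mitochondrially encoded subunits to 10.5 for the growth hormone and prolactin family, with transmitter receptors and channels between 41.0 and 57.9.

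Set against the labelled tissue, 47 of 232 marker genes of brain cell types, or 20.3%, were in the top 10%, against 4 of 285 genes of tissues outside the brain, or 1.40%. At the floor were 4.74% of the first and 18.9% of the second, against 8.64% of all genes. The median percentiles were 63.6 and 28.0. With the red and white blood cell, pituitary and pineal lists added to the first, 16.2% of 290 genes were in the top 10% and 6.90% at the floor.

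Oligodendrocyte, astrocyte and general neuronal genes had medians within a few points of each other, and their order changed without replicate 3. Of 15 oligodendrocyte genes measured, 10 were in the top 10% and none fell below the 78th percentile, with a median of 91.8 (92.1). After Mbp came Mobp, another myelin basic protein, at 11.19, 11.63 and 10.19, Gstp1, a glutathione transferase, at 10.26, 9.96 and 10.55, and Qdpr, which recycles biopterin, at 9.67, 9.54 and 9.54. The lowest were Ugt8, which makes the myelin lipid galactosylceramide, at 7.70, 8.50 and 6.99, and Enpp2, which makes lysophosphatidic acid, at 7.47, 8.08 and 7.51. The median range over the 3 arrays was 0.488, against 0.823 for all genes above the floor.

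Oligodendrocyte precursors had a lower median, at percentile 56.9 (65.3) over 10 genes. Cspg5, a proteoglycan, read 10.44, 9.93 and 9.49, and Nnat, neuronatin, was also in the top 10%. Bulk RNA does not show which cells gave the signals of Cspg5 and Nnat. Bcan, brevican, read 9.41, 8.75 and 7.92, and the growth factor receptor Pdgfra 7.48, 7.52 and 6.79. Vcan, versican, read 3.52, 3.20 and 3.26, and Tnr, tenascin R, was at the floor.

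Astrocyte genes were split. Of 22, 11 were in the top 10% with a median percentile of 90.4 (92.7), and none was at the floor. Besides Apoe, Cst3 and Aldoc, the calcium-binding S100b read 11.95, 12.22 and 12.47. The water channel Aqp4, at 4.52, 4.87 and 5.67, and the bicarbonate carrier Slc4a4, at 6.33, 4.09 and 6.65, were lowest. The glutamate transporter Slc1a3 was at 11.04, 10.999 and 9.13, whereas Slc1a2, which takes up most forebrain glutamate, was at 6.55, 5.99 and 5.79 (both named after their values were seen).

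General neuronal genes had 9 of 20 members in the top 10% and a median percentile of 89.97 (93.3). Nrgn, neurogranin, which binds calmodulin in dendrites, read 12.69, 12.65 and 10.76, Thy1, a surface protein of axons, 12.10, 12.16 and 11.67, and the microtubule protein Mapt 11.19, 9.86 and 10.73. The granule protein Scg2, at 6.26, 7.05 and 6.48, and Syt1, the calcium sensor of vesicle release, at 5.15, 4.55 and 3.96, were lowest. Of 61 genes of the synaptic vesicle cycle and release, 13 were in the top 10% with a median percentile of 66.4 (69.2). Vamp2, the vesicle SNARE, read 11.49, 11.50 and 10.14, Dnm1, the endocytic dynamin, 11.90, 11.75 and 8.49, and Napa, which helps to take SNAREs apart, 10.62, 10.75 and 9.18. Nlgn2, an adhesion protein of inhibitory synapses, was at the floor and the plasma membrane SNARE Stx3 read 3.20 on all 3 arrays.

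The 4 lists of excitatory, GABA, striatal and cerebellar neurons had medians between 67.7 and 78.5, and between 66.8 and 72.3 in another order without replicate 3. Excitatory forebrain genes had 4 of 12 members in the top 10% and a median percentile of 67.7 (71.1). Cck, the peptide cholecystokinin, read 11.04, 11.28 and 10.69, the calcium sensor Hpca 10.65, 10.75 and 11.03, and the activity-dependent factor Egr1 11.52, 10.79 and 10.03. The transcription factor Rorb read 3.20, 3.26 and 3.22, and Slc17a7, the vesicular glutamate transporter of cortex and hippocampus, was at the floor. It was measured by 1 probe set.

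GABA neuron genes had a median percentile of 74.5 (69.4), with 1 of 15 in the top 10%. The peptide Sst, somatostatin, read 10.51, 11.21 and 9.85, the vesicular GABA transporter Slc32a1 8.66, 9.17 and 8.47, the calcium buffer Pvalb 9.07, 9.11 and 8.05, and the peptide Npy 8.41, 9.03 and 8.28. The receptor Kit, at 4.23, 4.36 and 3.89, and the GABA-synthesising enzyme Gad2, at 3.52, 4.09 and 3.94, were lowest. The other GABA-synthesising enzyme, Gad1, read 7.85, 9.31 and 8.40 (named after its value was seen).

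Striatal genes had a median percentile of 78.5, which fell to 66.8 without replicate 3, the largest shift of the 65 lists when that array was left out. Pdyn, prodynorphin, was even at 9.82, 9.35 and 9.63, and Gng7, a G protein subunit, read 8.78, 9.05 and 9.37. Penk, proenkephalin, read 8.04, 8.57 and 10.97, and Arpp21, a phosphoprotein of spiny neurons, 8.49, 8.89 and 9.62. The dopamine receptor Drd2 read 4.14, 3.20 and 3.89, and Gpr6 was at the floor. Beyond these, and named after their values were seen, Tac1, the substance P precursor, read 6.07, 7.86 and 10.63, Adora2a, an adenosine receptor, 6.80, 7.04 and 9.07, Drd1, the D1 dopamine receptor, 4.35, 5.69 and 7.59, Rgs9 3.20, 6.14 and 8.15, and the olfactory and striatal G protein Gnal 3.20, 4.23 and 6.63. All 5 list genes above the floor on every array with a range over 1 had replicate 3 set apart on the high side.

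Cerebellar genes had a median percentile of 70.1 (72.3) over 12. Pcp4, a calmodulin regulator, read 8.93, 9.96 and 11.72, the calcium pump Atp2b2 9.34, 10.06 and 8.13, and the calcium release channel Itpr1 8.81, 9.67 and 7.23, so Pcp4 was high on replicate 3 where Atp2b2 and Itpr1 were low. Fat2, a cadherin of granule cells, read 3.45, 3.25 and 3.20, and the Purkinje cell transporter Slc1a6 was at the floor.

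Hypothalamic peptide genes had a median percentile of 53.5 (44.3), monoamine neuron genes 50.7 (49.2) and cholinergic neuron genes 37.7 (35.9). After Sst and Npy, the highest peptides were Ghrh at 7.65, 7.59 and 7.64 and Adcyap1 at 7.55, 7.90 and 5.77, whereas Gal, galanin, read 3.20, 3.38 and 3.20 and Ucn, urocortin, was at the floor. The amine-degrading Maob and Maoa read 8.60, 8.99 and 8.34 and 8.21, 7.82 and 8.41, followed by Aldh1a1 at 6.93, 7.47 and 7.61 and the serotonin transporter Slc6a4 at 6.97, 6.98 and 6.75. Tph1, the peripheral serotonin-making enzyme, Hdc, which makes histamine, and Foxa2 were at the floor. The neurotrophin receptor Ngfr led the cholinergic list at 9.02, 7.24 and 8.29, before Ache at 7.48, 7.89 and 7.18, Slc18a3 at 6.58, 6.45 and 6.78 and Isl1 at 4.97, 4.89 and 5.31. Chat, which makes acetylcholine, read 4.18, 3.54 and 5.31 and the peptide Calca 3.56, 3.90 and 4.73.

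**Figure D3:**
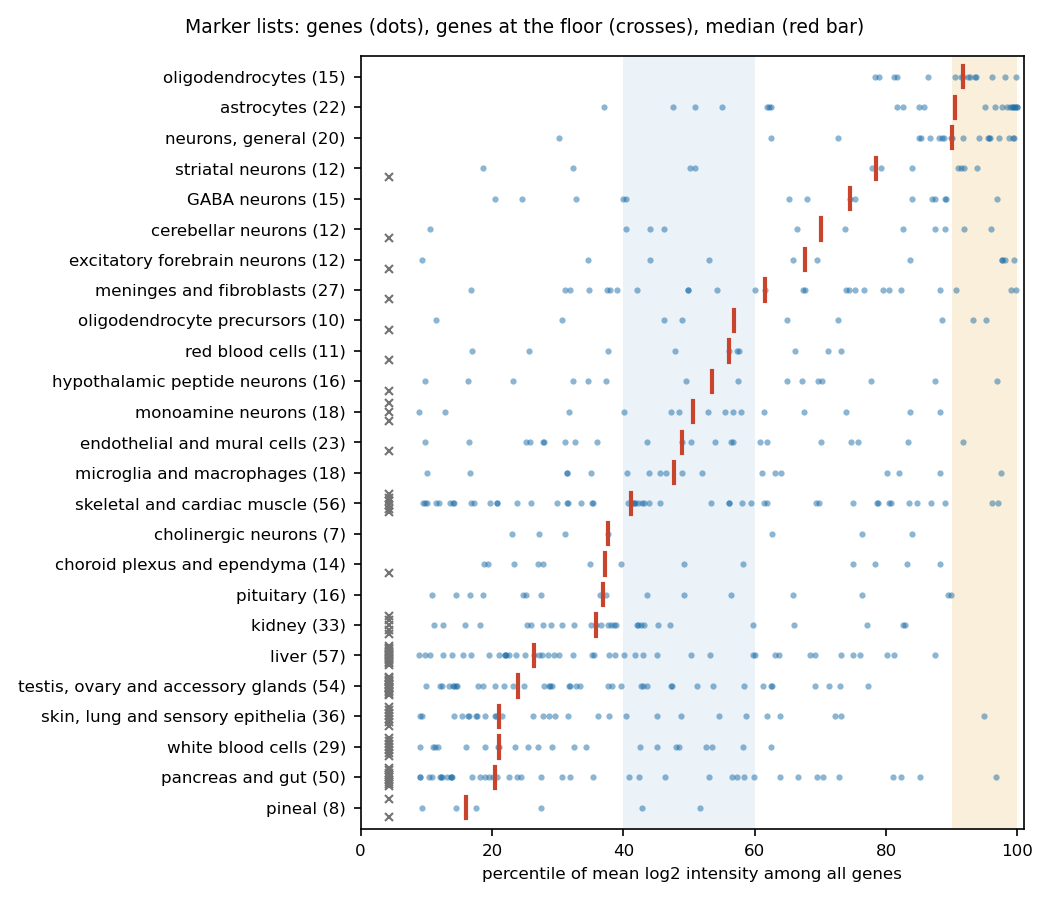
Percentile of each marker gene (dots), genes at the floor (crosses) and the median (red bar) for 25 lists of brain cell types and other tissues, with the number of measured genes in brackets. Oligodendrocytes, astrocytes and general neurons have medians of 91.8, 90.4 and 89.97, while liver, testis, skin, white blood cell, gut and pineal lists lie under 30.

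Microglia and macrophage genes had a median percentile of 47.7 (45.3) over 18. The lysosomal protease Ctss read 10.54, 10.28 and 11.25, the complement genes C1qb and C1qc 8.87, 8.44 and 8.63 and 7.84, 7.67 and 7.93, and Lyz2, lysozyme, 6.79, 8.08 and 9.03. The receptor Csf1r read 4.06, 3.28 and 3.54 and the integrin Itgam 3.20, 3.41 and 3.20. Endothelial and mural genes had a median of 48.9 (50.7) over 23. The glucose transporter Slc2a1 read 9.69, 9.65 and 8.10, the organic anion carrier Slco1a4 7.47, 8.76 and 8.17, the smooth muscle actin Acta2 7.95, 8.79 and 5.69 and the peptidase Anpep 7.31, 7.34 and 7.56, whereas Des read 3.26, 3.20 and 3.31 and Abcb1b was at the floor.

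Meningeal and fibroblast genes had a median percentile of 61.6 (65.8) over 27. Besides Sparc, Ptgds, the prostaglandin D synthase, read 11.61, 11.61 and 11.51, Timp2, a metalloproteinase inhibitor, 9.002, 8.67 and 9.19, and Igf2 8.62, 9.16 and 8.15. Spp1 read 3.20, 3.58 and 4.12 and Postn was at the floor. Choroid plexus and ependymal genes had a median of 37.3 (36.3) over 14. After Igf2 came Igfbp2 at 8.42, 7.93 and 8.01 and Enpp2, then Ttr, the thyroxine carrier that fills choroid epithelium, at 8.20, 7.18 and 6.92. The water channel Aqp1 read 3.20, 3.64 and 4.39 and the ciliary factor Foxj1 was at the floor.

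Blood genes differed between the arrays. Red cell genes had a median percentile of 56.1 (48.7) over 11, and the list mean was 4.86, 5.77 and 6.23. The anion exchanger Slc4a1 was even at 7.07, 7.36 and 7.43. The globin genes Hbb-b1 and Hbb read 5.40, 7.84 and 8.20 and 4.81, 7.58 and 8.06, and Alas2, the first enzyme of haem synthesis in red cells, 5.68, 6.47 and 6.70. Replicate 1 was the lowest array for each of these 4, as for 30.6% of genes above the floor on every array (29.5% for replicate 2). Hbg1 read 3.20, 3.20 and 4.52 and Epor was at the floor. White blood cell genes lay low, with a median of 21.1 (20.8) and 7 of 29 at the floor, 24.1% against 8.64% of all genes. Lck, a T cell kinase, was the highest of them at 6.51, 6.14 and 7.13, before Ctla4, Selp and Cd8b. The genes at the floor included Cd8a, Cd28 and Cd52.

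Glands that border the brain lay below the middle. Pituitary genes had a median percentile of 36.9 (35.2) over 16, with none at the floor. Chgb, a granule protein that neurons also make, read 8.55, 9.65 and 8.41, the peptide-processing enzyme Pcsk2 9.20, 9.02 and 8.15, and Ghrhr 7.74, 7.56 and 7.25, followed by Cga, the shared subunit of glycoprotein hormones. The hormone genes Gh1 and Prl read 5.21, 4.67 and 5.04 and 3.93, 3.20 and 3.75 (named after their values were seen), Tshb 3.20, 3.63 and 3.63 and Pou1f1 3.20, 3.20 and 3.52. Pineal genes had the lowest cell type median, at 16.05 (9.72) over 8. Grk1, a kinase of photoreceptors and pinealocytes, read 5.79, 5.73 and 6.26, and Asmt, which makes melatonin, 3.20, 3.20 and 4.63.

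Receptor and channel families had median percentiles between 41.0 and 57.9. The middle band held 20% of all genes by definition, and 5 of 24 sodium, calcium and HCN channel genes. Of 16 ionotropic glutamate receptor genes, 9 lay in that band and none in the top 10%, and the median percentile was 57.9 (55.6). Grik5, a kainate receptor subunit, read 8.77, 8.97 and 7.68, the NMDA receptor subunits Grin2c and Grin2b 8.48, 7.36 and 6.53 and 7.19, 7.11 and 6.78, and the obligatory NMDA subunit Grin1 7.35, 5.79 and 7.07. Gria4 and Grik1 were lowest, at 4.202, 4.995 and 5.21 and at 3.20, 3.89 and 3.41. The 7 metabotropic receptors had a median of 51.3 (58.4), from Grm3 at 7.71, 7.91 and 8.84 to Grm5 at 4.79, 3.20 and 5.24.

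GABA and glycine receptor genes, the targets of many anaesthetics, had a median percentile of 41.0 (41.8) over 20. The metabotropic GABA-B subunits Gabbr2 and Gabbr1 led at 9.71, 9.87 and 7.64 and at 9.73, 8.62 and 8.64. The GABA-A subunits Gabrd and Gabrb2 followed at 8.88, 8.73 and 7.83 and at 7.92, 9.51 and 7.48. The retinal subunits Gabrr2 and Gabrr3 and the epithelial Gabrp were at the floor. Monoamine and acetylcholine receptors had none of 48 in the top 10% and a median of 41.5 (39.6). Drd3 read 8.43, 8.47 and 8.64 on its brighter probe set and was at the floor on the other. The muscle receptor subunit Chrng read 7.88, 7.61 and 8.03, Chrm3 8.13, 7.97 and 6.69 and Chrnb4 7.25, 7.04 and 7.22. Htr1f and Hrh1 were at the floor.

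Potassium channels of all gating types had 2 of 54 genes in the top 10%, 14 in the middle 20% and 7 at the floor, with a median percentile of 41.6 (40.9). Kcnh3 read 10.52, 10.18 and 8.97, the auxiliary subunit Kcnab2 10.04, 9.99 and 8.85, Kcnj11 7.97, 8.09 and 7.55, and Kcnk1 8.17, 7.95 and 7.28. Kcna3, Kcnb2, Kcnj2, Kcnj6, Kcnj13, Kcnn3 and Kcnq1 were at the floor. Sodium, calcium and HCN channels had a median of 55.7 (56.7) over 24, from Cacna2d1, the gabapentin-binding calcium channel subunit, at 8.74, 8.85 and 9.43, through Scn2a at 8.47, 8.36 and 7.07, to the muscle channel Cacna1s and the sensory neuron channel Scn10a, both at the floor. Transmitter transporters had a median of 54.8 (55.0) over 22. After Slc1a3 came the glycine transporter Slc6a9 at 9.41, 9.17 and 8.15, while the adrenal Slc18a1 was at the floor.

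Families of signalling inside the cell differed in rank. Phosphodiesterases and cyclases had 1 of 27 genes in the top 10% and a median percentile of 33.7 (33.8). MAP kinases had 2 of 16 and a median of 59.9 (62.5). Heterotrimeric G protein and RGS genes had 6 of 28 in the top 10% and a median percentile of 66.1 (69.0). After Gnas came Gnao1, the main G protein alpha subunit of brain, at 10.25, 10.11 and 10.90, and the beta subunit Gnb1 at 9.94, 10.28 and 9.86. Gnb3, Rgs1 and Rgs18 were at the floor. Calmodulin and calcium kinase genes had 7 of 24 in the top 10% and a median of 74.7 (74.9), with Calm2 at 10.88, 10.83 and 11.82 and Camk2b at 11.05, 9.92 and 11.09. Camk2a, known as one of the most abundant forebrain proteins, read 5.78, 5.50 and 3.26 on its brighter probe set and 4.23, 4.64 and 5.33 on the other (named after its values were seen). Of 6 protein kinase C genes, Prkcb was brightest at 10.01, 10.63 and 9.24 and Prkca dimmest at 3.20, 3.39 and 3.20.

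Immediate early genes, which neurons and glia switch on within minutes of stimulation, had a median above that of all genes in these briefly anaesthetised rats. Of 35, 3 were in the top 10% and 2 at the floor, with a median percentile of 63.3 (64.4). Besides Egr1, the dendritic Arc read 10.73, 10.10 and 7.75, the small GTPase Rheb 9.07, 9.36 and 8.72, and the nuclear receptor Nr4a1 9.81, 9.08 and 7.45. Replicate 3 was lowest for all 4, as for 39.9% of genes above the floor on every array. Jund and Egr3 were at the floor, and Fos read 8.48, 8.27 and 8.72 (named after its value was seen).

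The genes nearest the middle rank belonged to unrelated families. They were the olfactory receptor Or2b2 at 5.64, 5.58 and 6.25, Rgs9, the metalloproteinase inhibitor Timp3 at 5.76, 5.43 and 6.26, the kinase Mapk7 at 6.25, 5.94 and 5.25 and the matrix protein Fmod at 5.75, 5.58 and 6.11. Rgs9 reached the middle only as the mean of 3 very different arrays.

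Genes of other tissues were at the floor more often than genes overall. Liver genes had 13 of 57 at the floor, 22.8% against 8.64% of all genes, none in the top 10%, and a median percentile of 26.5 (24.8). Testis, ovary and accessory gland genes had 14 of 54 at the floor, 25.9%, and a median of 24.0 (22.8). Pancreas and gut genes had 9 of 50 and a median of 20.5 (21.6), and skin, lung and sensory epithelium genes 7 of 36 and a median of 21.1 (21.4). Muscle genes stood higher, with 6 of 56 at the floor and a median of 41.1 (38.2), and so did kidney genes, with 5 of 33 and a median of 35.9 (35.6).

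The highest genes of the muscle list were Bin1, a membrane-bending protein, at 10.91, 10.70 and 10.03, Tpm1, tropomyosin, at 9.95, 10.12 and 10.72, and Pvalb. Those of the liver list were Itih3 at 9.22, 8.26 and 8.25, A2m, a protease inhibitor, at 8.25, 7.75 and 7.73, and Sult1a1 at 7.55, 7.50 and 8.42. Liver genes at the floor included Fabp1, Tat, Tdo2, Pck1 and Igfbp1, and muscle genes at the floor included Ttn, Myog and Myh2. Among testis and gland genes Inha, Crem, Defb1 and Amh were highest, Inha at 7.42, 7.61 and 7.73, and Tnp2, Ldhc and Sycp3 were among those at the floor.

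A few genes of other tissues read far higher than their other probe sets. Lep, the adipocyte hormone leptin, read 10.0015, 9.54 and 10.07 on 1 probe set and between 4.34 and 5.25 on the other 2. Fabp6, the ileal bile acid carrier, read 10.27, 10.10 and 10.99 on 1 and was at the floor on the other. Ins2, insulin, read 7.95, 8.46 and 8.55 on 1 of 3 probe sets and was at the floor on another. The percentiles of these 3 genes, 94.9, 96.7 and 85.2, thus rest on 1 probe set each, and whether it measures the named transcript was not tested.

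Immune and sensory families were among the lowest. Interleukins, their receptors and chemokines had 10 of 35 genes at the floor, 28.6% against 8.64% of all genes, and a median percentile of 21.7 (18.1). The 2 in the top 10% were Cx3cl1, the neuronal chemokine fractalkine, at 10.93, 10.87 and 8.68, and Cxcl14 at 9.66, 9.49 and 9.08. Il6, Il2, Ccl3, Ccl5 and Cxcl2 were among those at the floor. The 5 immunoglobulin and T cell receptor genes had a median of 10.5 (6.28) and the growth hormone and prolactin family 10.5 (6.28), with Prl4a1 and Prl8a2 among its 5 of 10 at the floor. Olfactory, vomeronasal and taste receptors had 8 of 56 at the floor, 14.3%, and a median of 27.7 (26.8), Or13p4 being highest at 7.39, 7.40 and 8.03. Keratins had 3 of 10 at the floor, Krt1, Krt5 and Krt20, and a median of 21.6 (24.2).

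Histocompatibility genes of class I and II lay higher than the interleukin and chemokine list, with a median percentile of 67.4 (63.8) over 17. RT1-CE12 read 8.88, 8.99 and 8.89, RT1-CE16 8.80, 8.90 and 9.04, RT1-A 8.97, 8.62 and 8.86 and the class II-related RT1-DOa 8.50, 8.08 and 8.62. RT1-A3 read 3.96, 3.23 and 3.20 and RT1-DOb was at the floor. Probe sets of this family can share sequence, so single members are uncertain.

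Promoters differed along the ranking in features that the ranking did not use. The RefSeq table held promoters, from 250 bases before to 50 after the start, for 3879 genes, 81.9%. The median CpG ratio, the CpG pairs observed over those expected from the C and G content, was 0.378 at the floor, 0.712 in the middle 20% and 0.809 in the top 10%, against 0.691 over all genes. Median G+C content was 54.8%, 60.3% and 61.7%. The GC box GGGCGG, on either strand, was present in 38.4% of promoters at the floor and 68.9% of those in the top 10%. The TATA element TATAAA, on either strand, was present in 17.7% at the floor and 9.63% in the top 10%, against 11.3% of all. The CCAAT box, on either strand, showed little difference, at 40.7%, 40.5% and 38.8%. The median gene span was 13.1 kb in the top 10%, 24.7 kb in the middle 20% and 19.2 kb at the floor.

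**Figure D4:**
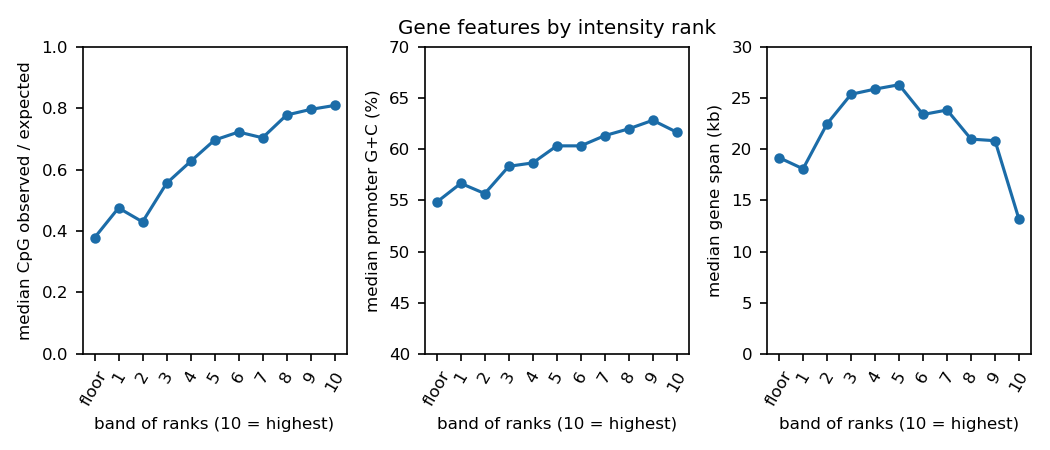
Median promoter CpG ratio, promoter G+C percent and gene span in kb for genes at the floor and for 10 equal bands of rank (10 is the highest, genes at the floor are kept out of band 1, and the middle panel starts at 40%). The CpG ratio rises from 0.378 at the floor to 0.809 in the top 10%, and gene span is shortest in the top 10% at 13.1 kb.

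The share of promoters with TATAAA varied between lists. It was highest in the pituitary list, at 50% of 12, and was 46.7% of 45 in pancreas and gut, 33.3% of 36 in cytochrome P450, 33.3% of 12 in hypothalamic peptide and 27.1% of 48 in liver promoters. The element was in none of 50 promoters of the synaptic vesicle list and in 4.55% of 44 oxidative phosphorylation promoters. Of the 50 genes of other tissues that were at the floor and had a promoter, 7 (14%) carried TATAAA on the sense strand within 45 bases before the start, against 161 of 3879 (4.15%) over all genes and 22 of 344 (6.40%) of those at the floor. Of these windows, 6 are shown 5′ to 3′, ending at the base before the start, with the element in capitals. They are shown because the element lies close to the start in genes that gave no signal above the floor. The window of Cdx1, which also holds the GC box GGGCGG, is not shown.
Cpb1, pancreatic carboxypeptidase, chr2:104714663-104714707, minus strand: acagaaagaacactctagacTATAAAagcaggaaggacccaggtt
Fabp1, liver fatty acid carrier, chr4:104749295-104749339, plus strand: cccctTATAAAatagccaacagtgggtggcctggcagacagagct
Myh2, muscle myosin, chr10:52355694-52355738, plus strand: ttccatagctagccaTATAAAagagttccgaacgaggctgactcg
Scgb1a1, airway secretoglobin, chr1:215409687-215409731, minus strand: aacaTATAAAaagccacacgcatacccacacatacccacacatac
Scgb1d2, a gland secretoglobin, chr1:215656711-215656755, minus strand: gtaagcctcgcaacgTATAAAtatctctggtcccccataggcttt
Svs5, seminal vesicle secretory protein, chr3:173415476-173415520, plus strand: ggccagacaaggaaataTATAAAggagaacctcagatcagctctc

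The full cyclic AMP response element TGACGTCA, a palindrome that CREB-type factors bind, was in 4.69% of promoters in the top 10%, or 19 of 405, against 2.42% of all and 2.33% at the floor. In the top 10%, 11 genes carried it in a window of 90 bases that began 80 bases before the start. Eef2 and Mif, a cytokine-like protein that read 11.50, 11.33 and 11.36, are shown as examples. Both sequences begin 80 bases before the start, with the element in capitals. In some of the other genes, such as Pmepa1, the element lay nearer to the start.
Eef2, chr7:9189229-9189318, minus strand: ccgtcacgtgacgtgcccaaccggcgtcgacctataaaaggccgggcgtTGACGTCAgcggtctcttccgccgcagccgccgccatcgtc
Mif, chr20:12790277-12790366, plus strand: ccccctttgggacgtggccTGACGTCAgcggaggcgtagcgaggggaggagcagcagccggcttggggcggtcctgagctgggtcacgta
Eef2 also held TATAAA upstream of it, and Mif held none in this window.

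The 3 control arrays differed by over 1 on the log2 scale, 2-fold, for 1393 of the 3641 genes above the floor on all of them, 38.3%. Replicate 3 was the array farthest from the median for 959 of these, 68.8%, with 419 high and 540 low, against 188 (13.5%) for replicate 1 and 246 (17.7%) for replicate 2. Replicate 1 was apart and high for 4.38% and low for 9.12%, and replicate 2 high for 9.98% and low for 7.68%. With replicate 3 left out, 308 genes differed by over 1 between the other 2, against 1038 without replicate 1 and 997 without replicate 2. The median range was 0.823 and the median SD 0.433. A range over 2, 4-fold, was seen for 268 genes and a range over 3, 8-fold, for 40. The share with a range over 1 was 49.4% in the top 10%, against 38.3% of all, but it did not rise steadily with rank. In 10 equal bands of rank, where band 10 is the top 10%, it was 41.3% in band 3 and 46.5% in band 4. It was 37.5% in band 5, 32.7%, 32.5% and 30.2% in bands 6, 7 and 8, and 41.1% in band 9. Band 2, with 62 genes above the floor on all 3 arrays, had 11.3%.

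The array that stood apart split the families by direction. Of 37 ribosomal protein genes with a range over 1, 35 had replicate 3 apart and high, as had 23 of 28 oxidative phosphorylation genes and 9 of 11 ubiquitin and proteasome genes, against 30.1% of all genes with such a range. Replicate 3 was apart and low for 10 of 14 general neuronal genes, 16 of 23 synaptic vesicle genes, 8 of 12 chaperones and 9 of 16 immediate early genes, against 38.8% of all. Astrocyte genes went both ways, with 9 of 15 low and 4 high. The mean of the general neuronal list was 9.42, 9.66 and 8.27. Syn1 read 10.26, 9.49 and 6.88 and Snap25, a SNARE of the plasma membrane, 9.61, 9.53 and 6.75 (named after their values were seen).

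Properties of the genes moved with this split. The 419 genes high on replicate 3 had a median span of 10.3 kb and a median promoter G+C of 58.7%. The 540 low ones had 29.2 kb and 64.3%, against 21.5 kb and 60.3% for genes with a range of 1 or less. Genes with replicate 2 apart and high had 36.2 kb and 63%, and those with it low 25.7 kb and 58.7%. With replicate 1 apart, the high genes had 18.7 kb and 58.5%, and the low ones 17.8 kb and 59.3%. A G+C near 58.7% was thus not particular to the genes high on replicate 3, whereas their span was the shortest of these sets. On replicate 3 the 3′ to 5′ ratios of actin and GAPDH were the highest of the 3 arrays and that of hexokinase the lowest. The part of these properties in the spread was not tested.

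The 15 widest genes in the ranks above the median all had replicate 3 apart. Tac1, with a range of 4.55, was the single one of them that was high there. The other 14 were low on it, among them Camk2n2, an inhibitor of calcium kinase II, at 7.64, 7.22 and 3.36, Fhl2 at 7.29, 7.71 and 3.57, and the polarity kinase Mark2 at 7.50, 6.99 and 3.55. Atn1, atrophin, read 8.51, 8.11 and 4.57, Rasgrf1, a calcium-dependent Ras activator, 10.10, 9.82 and 6.18, and Sptan1, the brain spectrin, 10.19, 9.72 and 6.34. In each of these 6, replicates 1 and 2 lay nearer to each other than to replicate 3, which follows from replicate 3 being the array apart. Madd, Sirpa, Nr2f1, Kcns1, Nell1, Rnf112, Sod3 and Gstk1 completed the set, with ranges from 3.43 to 3.68.

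The narrowest ranges in the top 10% were as follows. Akt1, a kinase of growth factor signalling, read 8.95, 8.95 and 8.92, and Ntrk2, the BDNF receptor, 8.91, 8.86 and 8.90. Prkar1b, a regulatory subunit of protein kinase A, read 11.48, 11.52 and 11.53, and Rtn1, a reticulon of the endoplasmic reticulum, 10.71, 10.70 and 10.65. These 4 ranged by at most 0.0518. The next 6 were Anapc5, Gas7, Ptgds, RT1-CE12, the lipocalin Apod and Ndufc1, with ranges from 0.0745 to 0.125. Among these 10, replicate 3 differed from the others by at most 0.125, which follows from their choice by narrow range.

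**Figure D5:**
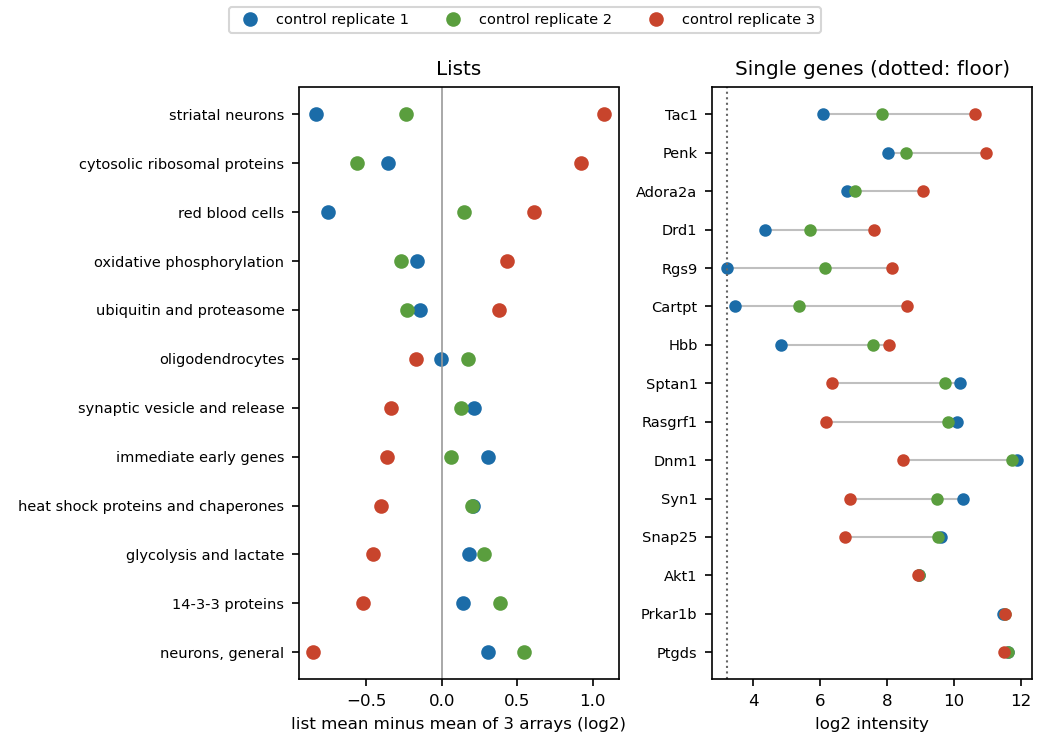
Left, mean of 12 gene lists on each control array minus the mean of the 3 arrays (log2). Right, log2 intensity of 15 genes on each array, with lines from the lowest to the highest and the floor dotted. Replicate 3 lies highest for striatal, ribosomal and red cell lists and lowest for general neurons, and Akt1, Prkar1b and Ptgds overlap on all 3 arrays.

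Where a gene had several probe sets, they often disagreed. Of 1565 such genes the median gap between the brightest and the dimmest was 1.58 on the log2 scale, and 314, 20.1%, had a gap over 3. The largest gaps were in S100b (7.77), the proteasome activator Psme1 (7.60), Fabp6 (7.26), the complex I subunit Ndufb8 (7.15) and the glycolytic Pgk1 (7.14). S100b read 11.95, 12.22 and 12.47 on 1 probe set and 4.31, 4.47 and 4.54 on the other, so its place among the 30 brightest rests on the first. Of 265 genes in the top 10% with several probe sets, 16 had another one at the floor. The same limit applies in the other direction to markers that read low, such as Slc17a7, Gad2 and Aqp4, and a low signal of a probe set is not a low level of the transcript.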

How the data were processed

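Total RNA of whole rat brain was measured on 8 arrays, 3 of them from controls. The authors deposited linear intensity values, 1 per probe set and array. No source used here names the software, the scaling target or the detection calls. With the outer 2% trimmed, the control arrays averaged 150.243, 150.219 and 150.325, so no further scaling was applied. Arrays give no counts, and their number limits the precision.

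Probe sets were named through the platform annotation. Of 8740, 7006 had 1 symbol, 308 several and 1426 none. For 6985 of the probe sets with 1 symbol, the symbol was taken from RefSeq assembly GRCr8. The 1734 probe sets without a single symbol were left out, of which 176 (10.1%) exceeded the lower limit of the top 10%. Values were floored at 9.18 and log2 was taken. With 1 group and no comparison, no test was run and no p-value is given. Medians, counts, ranges and SDs (n = 3) were computed with Python 3.11.15, pandas 2.3.3 and numpy 2.4.6. The ranking and spread steps were tested on simulated data.

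The group, its gene lists and the rules were chosen with earlier results of these data known. The 65 lists came from textbook markers and symbol patterns. After the files were read, 4 genes caught by a pattern (Tubgcp4, Tubgcp6, Grina and Ndufaf3) were removed, 2 families were renamed and the mitochondrially encoded family and the gene span were added. Genes were named by rule: the 30 brightest, the 4 highest and the 2 lowest or floor members of each list described, the 15 widest above the median, the 10 narrowest of the top 10%, the 5 listed genes nearest the median and the 5 largest probe set gaps. Names beyond the rule were chosen after their values were seen. Promoter sequences are RefSeq's.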

Additional observations from a re-analysis of the deposited data

How the results depend on the processing

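In all, 12 alternatives were tried: 3 other floors, a pseudocount of 16 with no floor, quantile normalization, median centring, 3 other rules for genes with several probe sets, and leaving out each control array. Of 150 alternative values of the main results, 136 moved by less than the spread between replicates or, for counts, stayed within 1.5 times the reported count. Genes at the floor numbered 409, but 51 with a floor at the 5th percentile, 1178 at the 40th and 709 with the dimmest probe set. Genes with a range over 1 numbered 1393, but 1903 with the floor at the 5th percentile, 913 at the 40th and 953 with the pseudocount. With 1 array left out, where the range is over 2 arrays, they numbered between 308 and 1038, the lowest without replicate 3. Lists with a median over the 90th percentile fell from 10 to 6 with the dimmest probe set. The CpG ratio at the floor, 0.378, was 0.295 and 0.445 with the floor at the 5th and 40th percentiles and 0.435 with the dimmest probe set. In the top 10%, 0.809 became 0.797 with the mean of the probe sets, 0.804 with the dimmest and 0.798 with only unmarked probe sets. Unmarked means that the name carries none of the mark letters s, f, r, i and g. With 1 array left out, this ratio lay between 0.804 and 0.811. The TATAAA share of the top 10%, 9.63%, was 8.03% with only unmarked probe sets. In all 12, promoters at the floor had the lower CpG ratio and the higher TATAAA share of those bands. Of 779 alternative list medians, 156 moved beyond their spread and 92 by over 5 percentile points, the largest by -35.9 for protein kinase C with the dimmest probe set. Of the 30 brightest genes, 25 stayed above the 90th percentile throughout. The cause of these shifts was not tested. Which array stood apart cannot be asked of 2 arrays and was not rerun with 1 left out. Protein length was planned as a feature and was not run. No paired analysis was possible because there is 1 group and no comparison.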

Other observations

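Some gene groups were not described above. Glutathione, sulfo- and glucuronosyl transferases had 7 of 32 genes in the top 10% (10% of all genes), although their median percentile was 53.6. Mgst3, a microsomal glutathione transferase, read 10.83, 10.77 and 11.10 on control replicates 1, 2 and 3, and Gstp1, Gstm1 and Gstm7 followed, Gstm1 at 10.58, 10.23 and 8.92. Sult1c2a was at the floor. Cytochrome P450 genes, by contrast, had 1 of 48 there, Cyp2d4 at 9.40, 8.72 and 8.94, and 7 at the floor, with a median of 36.1.

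Solute carriers, the largest family at 117 genes, had a median percentile of 50.6, with 7 in the top 10%. The mitochondrial carriers Slc25a4, Slc25a5 and Slc25a3 led at 11.04, 11.22 and 11.25, at 10.43, 10.64 and 10.93, and at 10.65, 10.55 and 10.71, and 9 carriers were at the floor, among them the hepatic glucose transporter Slc2a2. Homeobox and POU factors, which pattern the embryonic brain, had none of 28 in the top 10% and a median of 33.3. Lhx2 was highest at 7.84, 8.34 and 6.18, and Lhx1 and Pax6 were at the floor. Cell death regulators of the caspase and Bcl2 families had a median of 62.0 over 14, led by Bad at 9.01, 9.03 and 9.71, with Casp6 lowest at 3.35, 4.94 and 3.20. The serine protease Mcpt1l1, of a mast cell family, read 9.51, 9.73 and 9.82 while Mcpt1 and Mcpt4 were at the floor.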
